A study of Homo sapiens with 2 samples.

Results

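Cytosolic ribosomal protein genes were followed in the open chromatin of 2 human cell lines, J76 and 293T. The members were the autosomal protein-coding genes whose symbol is RPL or RPS with a number and at most 1 letter after it, together with RPLP0, RPLP1, RPLP2 and RPSA. That rule gave 77 of the 19126 autosomal protein-coding genes: 31 small subunit genes, 43 large subunit genes and 3 genes of the stalk, the flexible arm of the large subunit that recruits elongation factors. The rule reads gene symbols, type and chromosome, and no peak value. They lay on 20 autosomes, with 12 of them on chromosome 19.

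Chromatin was profiled by ATAC-seq, in which the Tn5 transposase cuts accessible DNA and inserts sequencing adapters in the same step. The enzyme was prepared in the submitters' laboratory, and each reaction took 50000 cells in logarithmic growth. J76 is labelled as acute T-lymphoblastic leukemia; the line derives from Jurkat and lacks its own T cell receptor chains. The other library is labelled T293 and embryonic kidney, and the protocol names it 293T, a kidney line that carries the SV40 large T antigen. Neither group has a stated treatment or genetic change beyond the line itself. Each line had 1 library, so every difference between the lines lacks a replicate check, no test was run and no p-value is given.

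Ribosomal proteins join the ribosomal RNAs to form the small subunit, which reads the messenger RNA, and the large subunit, which joins amino acids. Their genes are among the most highly transcribed protein-coding genes of dividing cells, and the proteins are made in matched amounts. Many of their messenger RNAs begin with a run of pyrimidines, the terminal oligopyrimidine or TOP motif, through which growth signalling by mTOR controls their translation. Most of the genes are active in every tissue, while a few paralogs are restricted to testis or muscle.

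The start regions of 13 members are printed to show what the peaks described below cover. RPS6, RPL27A, RPSA and RPS13 had some of the strongest peaks. RPL7A and RPL35A differed most between the lines, and RPL19 and RPL36 had the weakest peaks in J76. RPLP0 and RPLP2 stand for the stalk. RPS29, RPS27L and RPL10L lacked a long pyrimidine run at the start printed. Each line gives 100 bases before the annotated start and 20 bases from it, 5′ to 3′, from the RefSeq promoter table of GRCh38.p14. Capitals mark the longest run of C and T that touches the 10 bases on either side of the start.
RPS6 (chr9:19380217-19380336, minus strand): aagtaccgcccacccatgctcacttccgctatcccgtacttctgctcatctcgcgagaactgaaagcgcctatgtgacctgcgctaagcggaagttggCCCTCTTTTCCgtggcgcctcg
RPL27A (chr11:8682692-8682811, plus strand): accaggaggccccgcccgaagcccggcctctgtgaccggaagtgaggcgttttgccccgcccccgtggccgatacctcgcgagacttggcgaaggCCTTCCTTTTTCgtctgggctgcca
RPSA (chr3:39406620-39406739, plus strand): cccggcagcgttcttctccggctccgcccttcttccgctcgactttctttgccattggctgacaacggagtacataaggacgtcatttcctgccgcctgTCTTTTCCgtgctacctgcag
RPS13 (chr11:17077648-17077767, minus strand): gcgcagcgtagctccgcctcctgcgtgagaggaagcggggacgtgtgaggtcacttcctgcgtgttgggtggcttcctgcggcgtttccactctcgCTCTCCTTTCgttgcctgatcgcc
RPL7A (chr9:133348118-133348237, plus strand): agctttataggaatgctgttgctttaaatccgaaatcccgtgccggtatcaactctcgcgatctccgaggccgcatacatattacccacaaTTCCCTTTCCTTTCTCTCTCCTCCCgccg
RPL35A (chr3:197950090-197950209, plus strand): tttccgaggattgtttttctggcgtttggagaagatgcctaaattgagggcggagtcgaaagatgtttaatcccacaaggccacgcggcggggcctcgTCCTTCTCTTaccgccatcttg
RPL19 (chr17:39200183-39200302, plus strand): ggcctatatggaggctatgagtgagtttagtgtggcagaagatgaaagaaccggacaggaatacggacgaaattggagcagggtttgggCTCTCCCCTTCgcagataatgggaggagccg
RPL36 (chr19:5690195-5690314, plus strand): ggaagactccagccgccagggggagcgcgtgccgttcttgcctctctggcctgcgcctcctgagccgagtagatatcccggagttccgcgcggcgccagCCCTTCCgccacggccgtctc
RPLP0 (chr12:120201092-120201211, minus strand): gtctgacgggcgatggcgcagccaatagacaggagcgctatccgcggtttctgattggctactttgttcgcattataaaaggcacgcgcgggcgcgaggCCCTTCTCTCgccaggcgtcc
RPLP2 (chr11:809867-809986, plus strand): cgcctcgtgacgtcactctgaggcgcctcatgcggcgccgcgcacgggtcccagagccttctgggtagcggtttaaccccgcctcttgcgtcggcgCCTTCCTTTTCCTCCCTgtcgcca
RPS29 (chr14:49598691-49598810, minus strand): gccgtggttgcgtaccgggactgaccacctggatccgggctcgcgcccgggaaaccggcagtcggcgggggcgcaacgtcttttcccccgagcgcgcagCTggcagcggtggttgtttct
RPS27L (chr15:63157458-63157577, minus strand): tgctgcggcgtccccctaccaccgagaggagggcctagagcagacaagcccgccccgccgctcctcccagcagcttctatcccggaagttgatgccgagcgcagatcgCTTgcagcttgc
RPL10L (chr14:46651762-46651881, minus strand): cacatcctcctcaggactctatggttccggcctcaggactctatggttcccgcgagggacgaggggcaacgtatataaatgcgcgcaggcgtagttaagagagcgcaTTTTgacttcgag

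Pyrimidine runs at the start set the members apart in sequence. The promoter table held 60 members, 58 of them with the gene's own 5′ end. Their median run was 11 bases, against 4 bases in 13092 other genes. A run of at least 10 bases was present in 41 of the 58 members (70.7%) and in 7.24% of the other genes. The annotated first base was C in 44 members (75.9%), against 11.0% of the other genes. On the gene's strand within 10 bases of the start, the string CTTTTC was found in 7 members (12.1%) and 0.871% of the other genes, and CTCTTT in 12 members (20.7%) against 0.718%. The string CCTTTC was in 14 members (24.1%) against 0.917%, and CTTTCC in 14 members (24.1%) against 1.05%. At least 1 of these 4 strings was in 29 members (50%) and in 2.93% of the other genes. Those strings overlap one another, and the run lengths of 7 and 10 bases were chosen after the sequences had been seen. Restricting the other genes to the 8561 with a peak in both lines left their share with a run of 10 bases at 7.29%.

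The longest run, 25 bases, lay at RPL7A, a large subunit gene that also hosts small nucleolar RNAs in its introns. RPLP2 had 17 bases, RPLP1 11 bases and RPLP0 10 bases. Short runs were found at RPS29 (2 bases), RPS27A and RPL32 (3 bases each), and RPL13 and RPL15 (4 bases each). Runs were scored only at the outermost 5′ end of each gene. In J76 the summit of the strongest RPL15 peak lay 475 bp from that end and 78 bp upstream of the nearest listed start. For RPS27A it lay 753 bp from the end and 22 bp upstream of the nearest listed start. For RPL32 it lay 48 bp from the end and 31 bp downstream of the nearest listed start. Runs at the other listed starts were not measured. RPS29 is annotated over 27723 bp, against a member median of 5011 bp. Whether its scored end is its main start was not tested. The 2 paralogs with a listed start, RPL10L and RPS27L, had runs of 4 and 3 bases and began with G. Among ribosomal genes outside the symbol rule, RACK1 had a run of 18 bases, FAU 16 bases and RPL36AL 15 bases. RPL7L1, whose protein works in ribosome assembly, had a run of 2 bases.

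**Figure D1:**
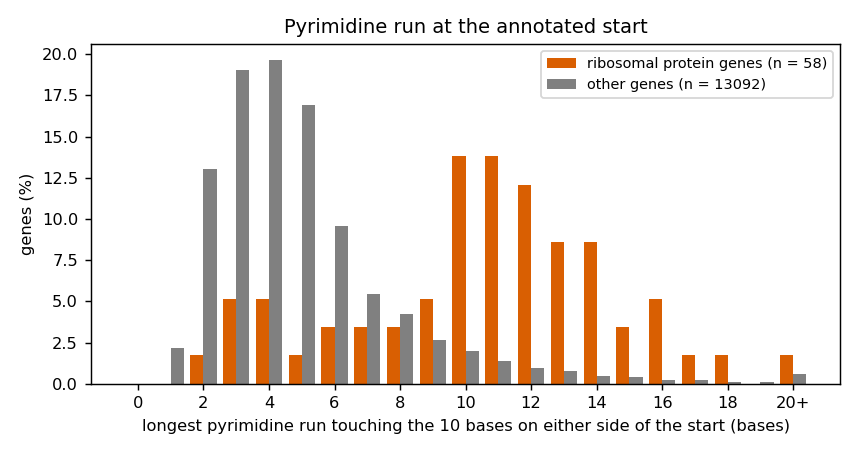
Length in bases of the longest pyrimidine run at the annotated start (horizontal axis; 20+ holds all longer runs) and percent of genes (vertical axis) for 58 ribosomal protein genes (orange bars) and 13092 other genes (grey bars). The members have a median of 11 bases and the other genes of 4 bases.

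A set of 6 short motifs were also counted on both strands of the promoters, from 250 bases before the start to 50 bases after it. CCGGAAG, an ETS family motif, was in 21 members (36.2%) and 14.7% of the other genes. TCTCGCGA, a core promoter element, was in 11 members (19%) and 1.69% of the other genes. AAGATGGC, a YY1 motif, was in 6 members (10.3%) against 4.09%, and GGGCGG, the SP/KLF motif, in 32 (55.2%) against 58.9%. TATAAA was in 6 members (10.3%) against 10.1%, and the E box CACGTG in 3 (5.17%) against 8.83%. Among the 8561 other genes with peaks in both lines these shares were 20.4% for CCGGAAG, 2.46% for TCTCGCGA, 73.0% for GGGCGG and 5.28% for TATAAA. They were 5.67% for AAGATGGC and 10.6% for CACGTG. The 21 members with CCGGAAG had a median rank at 9.38% of the J76 list and 9.83% of the 293T list, and the 36 without it, among members with a peak, at 9.08% and 9.38%. The 11 with TCTCGCGA had medians at 10.4% and 10.9%, and the 46 without it at 8.58% and 9.38%. For GGGCGG the medians were 8.88% and 9.48% with the motif and 9.29% and 9.4% without it. A match describes letters in a window and says nothing of binding.

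Nearly every member had open chromatin at a gene end in both lines. A boundary peak is a peak that overlaps the 1 kb on either side of either annotated gene end. In J76, 76 of the 77 members had one, against 65.3% of all autosomal coding genes. In 293T, 76 members had one, against 70.2% of all genes. The same 76 members were present in both lines (98.7%), against 61.3% of all genes. No member had a peak in J76 only, where 3.92% of all genes fell, or in 293T only, where 8.89% fell. RPL10L, a retrogene copy of RPL10 known from testis, was the member without a peak in either line; 25.8% of all genes had none. Its nearest peak lay 63.2 kb away in J76 and 19.8 kb away in 293T. Depth is unknown, as the peaks used here carry no counts of reads, and a missing peak cannot be read as closed chromatin.

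The lists held 59631 peaks in J76 and 85597 in 293T, with median widths of 369 and 364 bp. As a check of the labels, 9 of 10 T cell genes had a boundary peak in J76 and 3 of 10 in 293T. CD3E, CD3G, CD2, CD7, CD28 and LCK had one in J76 alone, and CD5 in neither. Those with one in 293T were RAG1 (rank 3378, and 3288 in J76), PTPRC (63089) and CD3D (68415). Of 8 kidney or epithelial genes, 6 had a boundary peak in 293T and 3 in J76; KRT8 and KRT18, neighbours that share 1 peak, had it in 293T alone, and PAX8 had none in either line. PAX2 had one in J76 alone, at rank 39191, and CDH2 ranked 7572 in J76 and 8850 in 293T. SIX2 ranked 19439 in J76 and 3183 in 293T. LHX1 and EYA1 had one in 293T alone, at ranks 20754 and 83793.

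Because folds and q-values depend on a library's depth, each peak was placed by its rank within its own list, with rank 1 for the highest −log10 q. Since the 293T list is longer, the same rank is a higher position in 293T than in J76. The best-ranked boundary peak of a gene is called its lead peak. The members' lead peaks had a median rank of 5415.5 in J76, which is 9.08% of the way down the list. In 293T the median rank was 8283, or 9.68% of that list. Ranked by fold instead, the medians were 6190 in J76 and 14901 in 293T. The other genes with a boundary peak had medians at 11.3% in J76 and 9.16% in 293T. The members' lead peaks reached the top 10% of the list for 45 genes (59.2%) in J76, against 45.2% of all genes with a peak. In 293T the top 10% held 41 members (53.9%), against 53.8% of all genes with a peak, which is the background share. The median fold enrichment at the summit was 9.15 for members and 8.40 for other genes in J76, and 7.29 and 7.79 in 293T.

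The spread among the members was narrower than among other genes. The central 50% of members' ranks ran from 4.72% to 13.5% of the J76 list, and those of the other genes from 5.31% to 20.6%. In 293T the members ran from 5.24% to 14.4% and the other genes from 4.11% to 17.0%. A narrow spread was not particular to the members. Ribosome biogenesis factors ran from 4.19% to 9.65% in J76 and from 2.14% to 8.05% in 293T. Proteasome subunits ran from 3.85% to 12.3% and from 3.91% to 9.19%. Mitochondrial ribosomal proteins, translation factors and RNA polymerase I with its factors spread wider than the members in J76 and narrower in 293T. Against the other genes, members were scarce at both extremes of the 293T list. Only RPSA was among its first 1000 peaks, where 7.1% of all genes with a peak had a lead peak; in J76 the first 1000 held 9 members, against 8.09% of all genes with a peak.

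**Figure D2:**
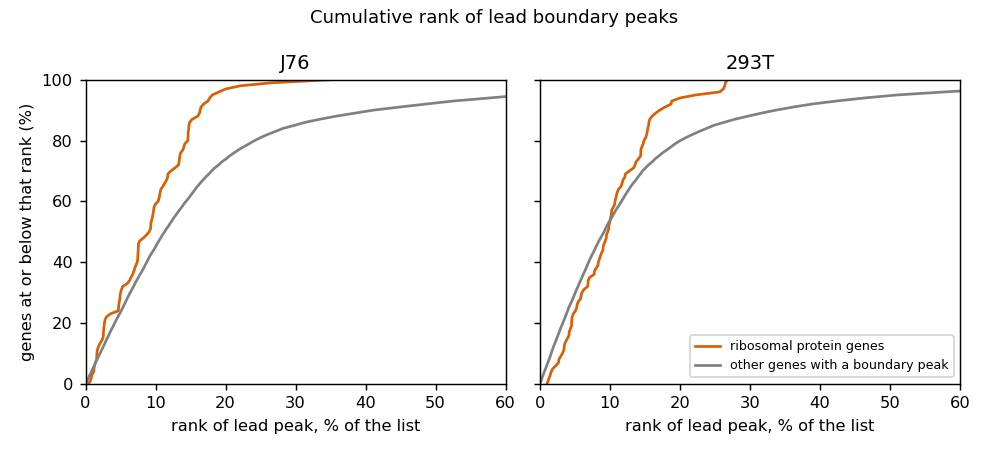
Percent of genes (vertical axis) whose lead peak lies at or above a given rank, expressed as percent of the list (horizontal axis, drawn to 60%; low is strong), in J76 (left) and 293T (right) for 76 ribosomal protein genes (orange) and the other genes with a boundary peak (grey). The members reach the top 10% of the list in 59.2% of cases in J76 and 53.9% in 293T, and their weakest lead peaks lie well above the tail of the other genes.

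The small subunit gene RPS6 had the highest rank of all members in J76. RPS6, whose protein is phosphorylated by the S6 kinases, ranked 257 with a fold of 11.8 in J76 and 2608 with a fold of 8.79 in 293T. Its lead peak (chr9:19379706-19380906 in J76) covered the start printed above and 1201 bp in all. RPSA, also known as the laminin receptor precursor, ranked 812 in J76 and 873 in 293T, at 1.36% and 1.02% of the lists. It was the highest member in 293T. RPL37 ranked 474 in J76 and 1045 in 293T. RPL27A ranked 507 in J76 and 1230 in 293T. RPS13 ranked 728 in J76 and 4349 in 293T. RPS6 stood at 0.431% of the J76 list and 3.05% of the 293T list, and RPS13 at 1.22% and 5.08%. RPL37, RPL27A and RPSA were among the 6 highest members in both lines, and RPS6 and RPS13 in J76 only.

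RPS19 and RPS14, the small subunit genes known respectively from Diamond-Blackfan anemia and from the deletion of chromosome 5q, were among the 6 highest in 293T. RPS19 ranked 1648 in 293T with a fold of 11.2 and 3026 in J76 with a fold of 10.2. RPS14 ranked 2271 in 293T (2.65% of the list) and 1893 in J76 (3.17%). Both were thus in the top 10% of both lists.

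The weakest lead peak of both lines belonged to RPL19, a large subunit gene often used as a reference gene in expression studies. RPL19 ranked 20897 in J76 with a fold of 4.10 and 22911 in 293T with a fold of 5.56. RPL36 ranked 14203 in J76 with a fold of 4.58 and 21998 in 293T with a fold of 3.48. RPL36 also had the narrowest lead peak in 293T, 464 bp, where its J76 peak was 1106 bp. RPL38 (rank 12162) was the next lowest in J76, and RPL35A (rank 22600) and RPL7A (rank 22587) joined RPL19 and RPL36 at the bottom in 293T. Both RPL19 and RPL36 carried a pyrimidine run, of 11 and 7 bases.

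**Figure D3:**
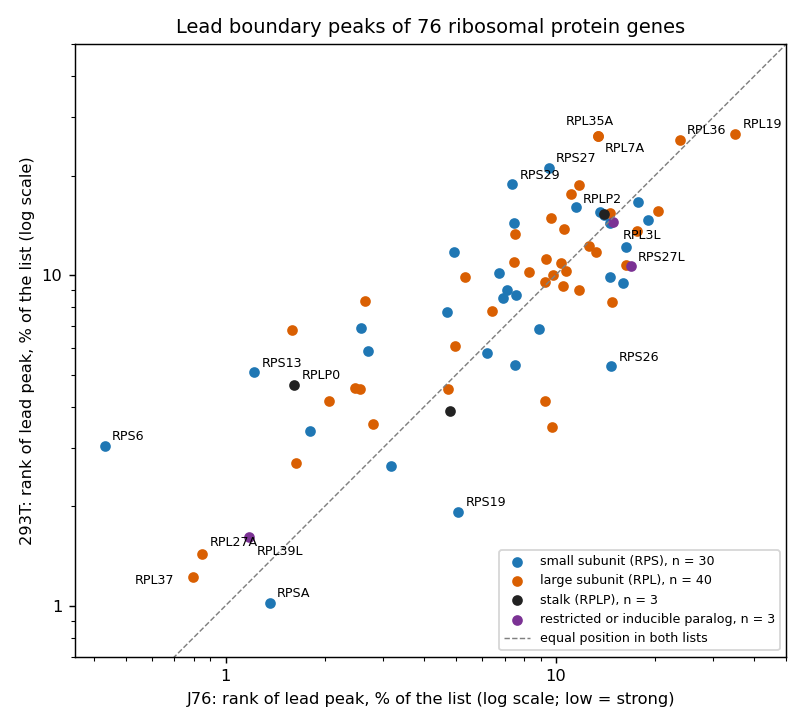
Rank of the lead peak as percent of the list in J76 (horizontal) and 293T (vertical), both on log scales, for the 76 ribosomal protein genes with a peak in both lines, coloured by class; the dashed line marks equal positions. RPSA, RPL37, RPL27A and RPL39L sit at the lower left in both lists, RPL19 at the upper right, and RPL7A, RPL35A, RPS27 and RPS29 above the line.

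The lines placed the members differently when each gene was ranked among genes. For this, the lead peaks of all autosomal coding genes with a boundary peak were ordered within each line, and a gene's percentile in that order was taken, with low percentiles for strong peaks. The members had a median percentile of 41.5 in J76 and 52.4 in 293T, whereas the other genes had 47.3 and 45.2. Of the 76 members, 58 (76.3%) stood higher in J76 than in 293T, against 49.6% of the 11732 genes with a peak in both lines. Large subunit genes did so in 34 of 42 cases (81.0%), small subunit genes in 21 of 31 (67.7%) and the stalk genes in 3 of 3. Under the other peak cut-offs, windows and ranking by fold that were tried, the members' share stayed between 75.6% and 84.2%. With 1 library per line, this shift cannot be told apart from a difference between 2 preparations.

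The same share was lower in the other lists. Translation initiation and elongation factors stood higher in J76 in 35 of 57 cases (61.4%), ribosome biogenesis factors in 17 of 32 (53.1%) and mitochondrial ribosomal proteins in 36 of 79 (45.6%). Proteasome subunits, another large complex of every cell, did so in 16 of 34 (47.1%), and RNA polymerase I and its factors in 3 of 15 (20%). Autosomal ribosomal genes outside the symbol rule did so in 4 of 6 cases (66.7%). These lists were counted as descriptions and the differences between them were not tested.

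The widest gaps in list position with the higher place in J76 were those of 4 genes. RPL7A stood at 13.4% of the J76 list, with a fold of 8.21, and at 26.4% of the 293T list, with a fold of 4.51. RPL35A, which is mutated in some cases of Diamond-Blackfan anemia, stood at 13.4% with a fold of 8.00 and at 26.4% with a fold of 4.91. RPS27 stood at 9.55% with a fold of 9.67 and at 21.1% with a fold of 4.36. RPS29 stood at 7.4% with a fold of 6.77 and at 18.9% with a fold of 3.69. All 4 were in the weaker part of the members in 293T, and RPS27 and RPS29 were in the top 10% in J76. The 293T lead peaks of RPL7A, RPS27 and RPS29 also lay within 1 kb of an end of MED22, RAB13 and LRR1. Those peaks cannot be assigned to 1 gene, while that of RPL35A had no other coding gene end in reach.

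In the other direction the gaps were smaller. RPS26 stood at 14.7% of the J76 list and 5.29% of the 293T list, with folds of 7.54 and 8.43. RPL19 stood at 35% and 26.8%, RPS3 at 16.0% and 9.48%, and RPL21 at 14.8% and 8.29%. RPS26, RPS3, which also takes part in DNA repair, and RPL21 were therefore in the top 10% in 293T alone.

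The site itself was shared. The lead peaks of the lines overlapped in all 76 members, against 96.2% of all genes with a peak in both lines. The summits lay within 50 bp of each other in 54 members (71.1%), against 67% of all genes, and the median distance was 14 bp, against 25 bp in other genes. Across the 76 members, the Spearman correlation of the lead ranks between lines was 0.749, and 0.774 across 11656 other genes. That of the widths was 0.665 and 0.662. These correlations are across genes, which are not independent replicates, and describe the 2 libraries.

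Lead peaks sat close to the start of transcription. Of the 60 members whose start is listed, 59 had a peak within 1 kb of a start in J76, against 68.8% of all genes with a listed start, and 59 in 293T, against 73.4%. The lead peak was the one at the start in 56 of 59 members in J76 (94.9%; all genes 93.4%) and 56 of 59 in 293T (94.9%; all genes 93.2%). The exceptions were RPL4, RPL17 and RPL41, in both lines. Their lead peaks lay at the gene's other end, where SNAPC5, C18orf32 and ZC3H10 also have an end. Each of the 3 also had a start peak of lower rank: 12776 in J76 and 9793 in 293T for RPL4, 10065 and 12204 for RPL17, and 10894 and 19456 for RPL41.

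Among those 56 members, the median summit lay 52.5 bp upstream of the nearest listed start of the gene in J76 and 34.5 bp upstream in 293T. Summits fell within 100 bp of the start in 47 members (83.9%) in J76, against 60.4% of all genes whose lead peak is at a start. In 293T they did so in 48 members (85.7%), against 62.2%. The summit was upstream of the start in 49 members (87.5%) in J76, against 79.1% of other genes. In 293T it was upstream in 44 members (78.6%), against 77.7%, which is near the background share. More members than genes at large thus had the summit close to the start, while the median position was similar (other genes, 54 bp upstream in J76 and 49 bp in 293T). At RPS6 the summit lay 48 bp upstream in J76 and 87 bp upstream in 293T, and at RPLP1 29 and 27 bp upstream. At RPL19 it lay 54 and 60 bp downstream of the start printed above, and 14 and 20 bp downstream of the nearest of its listed starts. At RPS29 it lay 48 and 65 bp downstream of the listed start.

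**Figure D4:**
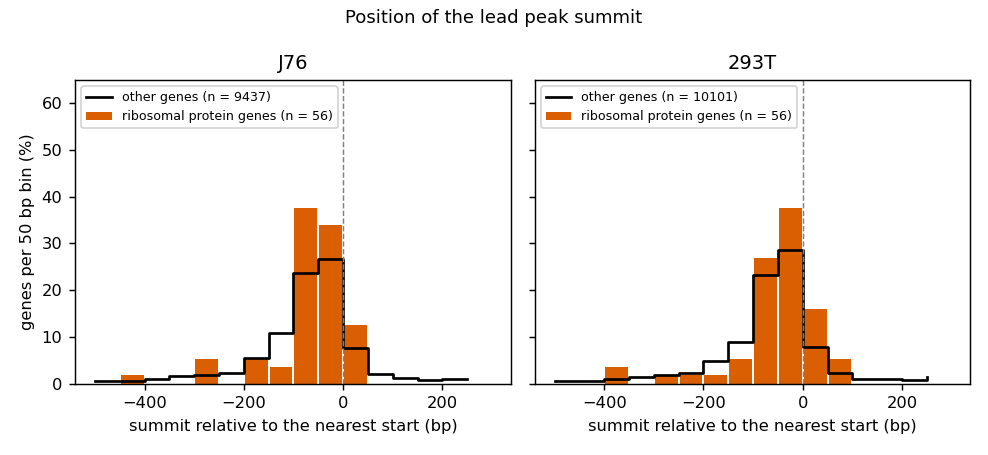
Distance in bp of the lead peak's summit from the nearest annotated start (horizontal axis, in 50 bp bins; summits outside the drawn range are left out) and percent of genes (vertical axis) for 56 ribosomal protein genes (bars) and other genes (black line) in J76 (left) and 293T (right). Summits of 83.9% of members in J76 and 85.7% in 293T lie within 100 bp of the start.

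Lead peaks were of ordinary width for a gene end. The median was 989.5 bp in J76 and 1101.5 bp in 293T, against 1067 and 1203 bp for the other genes. Of the 76 members, 46 (60.5%) were wider in 293T than in J76, against 70.1% of all genes with a peak in both. RPL7 had the widest lead peak in both lines, 2066 bp in J76 and 2158 bp in 293T. RPS12, a small subunit gene that hosts small nucleolar RNAs, was the next widest in both, at 1941 and 1696 bp. The narrowest were RPL14 (576 bp) and RPL3L (583 bp) in J76, and RPL36 (464 bp) and RPS27 (571 bp) in 293T. RPL19 had 815 bp in J76 and 575 bp in 293T, and RPL29 675 and 604 bp. Width and rank did not go together throughout: RPL7, the widest, ranked 6421 in J76 (10.8% of the list) and 8773 in 293T (10.2%).

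More members had a second boundary peak in 293T than in J76, and the gap depended on the cut-off. In J76, 13 members (16.9%) had at least 2 boundary peaks, against 10.8% of all genes. In 293T, 30 members (39.0%) had at least 2, against 14.7% of all genes. The comparison lists were above that share too. It was 30.6% for translation factors, 26.7% for RNA polymerase I and its factors, and 23.1% for proteasome subunits. Biogenesis factors had 22.2%, mitochondrial ribosomal proteins 21% and ribosomal genes outside the symbol rule 16.7%. The members' counts in J76 and 293T were 13 and 24 with lists of equal length, and 9 and 13 at −log10 q of at least 10. Among the first 20000 peaks of each list the members' counts were 5 and 7. The share over all genes was not counted at these cut-offs, so whether the members stayed above it is not known. The 14 additional peaks in J76 had a median rank of 26423.5, or 44.3% of the list, and the 35 in 293T a median rank of 46628, or 54.5%. Median widths were 479 and 468 bp. An additional peak ranks below its gene's lead peak by definition, so these lower positions were set in advance. The median widths of the lead peaks were 989.5 bp in J76 and 1101.5 bp in 293T. An end of another coding gene lay near 7 of the 14 in J76 and 15 of the 35 in 293T, and 7 of the 14 and 16 of the 35 overlapped a peak of the other line.

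Peaks at the 3′ end of the genes were counted apart. They are not all additional peaks, since at RPL4, RPL17 and RPL41 the far-end peak is the lead peak in both lines. A peak within 1 kb of the transcription end, and away from every listed start of the gene, was present in 7 of 60 members (11.7%) in J76, against 8.53% of all genes with a listed start. In 293T it was present in 20 of 60 members (33.3%), against 10.9% of all genes. Leaving out peaks with an end of another coding gene within 1 kb, 2 members remained in J76 (3.33%; all genes 4.78%) and 12 in 293T (20%; all genes 6.26%). The 2 in J76 were RPL38 and RPS15. The 12 in 293T were RPL3, RPL6, RPL13, RPL27A, RPL35A, RPS3A, RPS7, RPS9, RPS10, RPS14, RPS19 and RPS23.

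The strongest of these peaks was at RPL27A in 293T. It lay at chr11:8687623-8689273, spanned 1651 bp, ranked 5222 with a fold of 6.05, and overlapped no J76 peak; its summit was 867 bp inside the annotated gene end. The RPL3 peak (chr22:39310936-39312019) ranked 21696 with a fold of 3.34 and did overlap a J76 peak. At RPL13 the 293T peak (chr16:89565114-89566359) was 1246 bp wide but ranked 42561 with a fold of 2.41, and at RPS14 the peak spanned 1098 bp and ranked 33182 with a fold of 3.25. The remaining 8 ranked between 36518 (RPS19) and 82495 (RPL35A). Such peaks were read from 1 library, and many did not pass a stricter cut-off. With −log10 q of at least 10, a far-end peak was left in 16.7% of members and 6.90% of other genes in 293T, and in 10% of members and 5.86% of other genes in J76. Among the first 20000 peaks of each list it was left in 11.7% and 4.16% in 293T, and in 8.33% and 4.41% in J76, so the gap between the lines was smaller at both cut-offs. With the 293T list limited to 59631 peaks, the length of the J76 list, the shares were 28.3% and 8.87%.

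Other lists gave different far-end shares in 293T: 5.48% of 73 mitochondrial ribosomal protein genes, 22.4% of 49 translation factor genes, 14.3% of 28 biogenesis genes and 9.09% of 33 proteasome genes. In J76 they were 2.74%, 12.2%, 10.7% and 9.09%. Of the 7 ribosomal genes outside the symbol rule that have a listed start, 2 (28.6%) had a far-end peak in 293T and 1 (14.3%) in J76. Members are short genes, with a median of 5011 bp from end to end against 24685 bp in the other genes. Mitochondrial ribosomal protein genes had a median of 8618 bp and translation factor genes of 20486.5 bp. The part of gene length in the share was not tested.

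**Figure D5:**
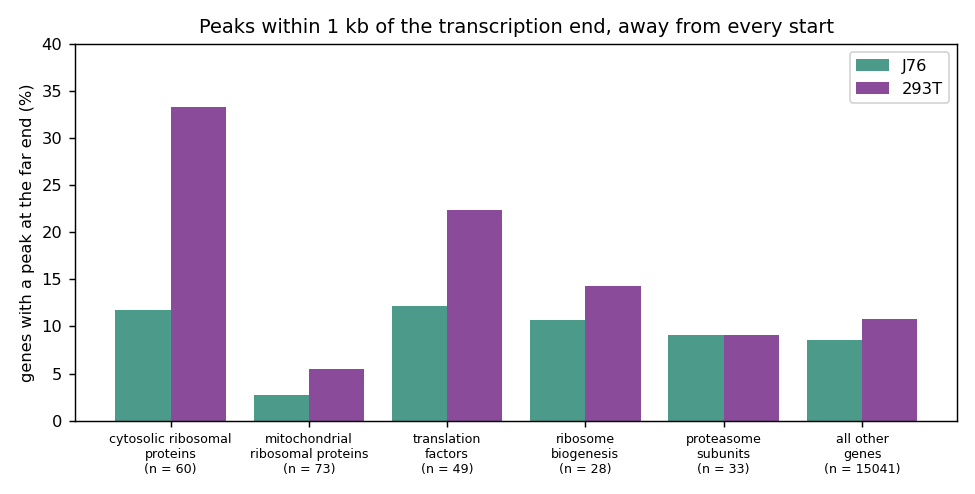
Percent of genes with a peak within 1 kb of the transcription end and away from every listed start (vertical axis, from 0) in J76 (green) and 293T (purple), for ribosomal protein genes, 4 comparison lists and all other genes, with the number of genes that have a listed start. Each bar is a share in 1 library; ribosomal protein genes reach 33.3% in 293T and 11.7% in J76.

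The stalk genes differed among themselves. RPLP0, the anchor that holds the stalk to the ribosome, ranked 962 in J76 with a fold of 10.2 and 3986 in 293T with a fold of 7.91. RPLP1 ranked 2861 with a fold of 9.85 and 3317 with a fold of 8.14, at 4.80% and 3.88% of the lists. RPLP2, which pairs with RPLP1 in the stalk, ranked 8375 with a fold of 5.56 and 13106 with a fold of 5.16. The order of RPLP0 and RPLP1 changed between the lines, and RPLP2 was the weakest of the 3 in both.

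RPL5 and RPL11 bind a small ribosomal RNA and, when not built into ribosomes, inhibit MDM2 and so stabilise p53. RPL5 ranked 2819 in J76 with a fold of 10.8 and 3860 in 293T with a fold of 7.30, at 4.73% and 4.51% of the lists. RPL11 ranked 5592 with a fold of 12.4 and 9604 with a fold of 8.51. RPL22, which with these 2 is altered in some T cell leukemias, ranked 5537 with a fold of 10.6 and 8150 with a fold of 9.69. All 3 were in the top 10% of the J76 list, and RPL5 and RPL22 in that of 293T. RPS27A, which is translated as a fusion with ubiquitin, ranked 4487 in J76 (7.52% of the list) and 4578 in 293T (5.35%).

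All 20 genes listed for Diamond-Blackfan anemia, an inherited failure of red cell production, had a boundary peak in both lines. Their median rank was at 7.26% of the J76 list and 9.02% of the 293T list, and 16 of the 20 (80%) stood higher among genes in J76, close to the share of 76.3% among all members. The highest was RPL15 in J76 (rank 976; 2317 in 293T) and RPS19 in 293T. The lowest was RPS28 in J76 and RPL35A in 293T. RPS28 ranked 9759 in J76 (16.4% of the list) and 10386 in 293T (12.1%). The 19 hosts of small nucleolar RNAs, which carry these RNAs in their introns, also had a peak in both lines, with medians at 10.6% and 11.7%.

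The 4 restricted or inducible paralogs were not alike. RPL39L, a paralog of RPL39 known from testis and from some cancers, had one of the strongest peaks of all members, with rank 704 and a fold of 11.8 in J76 and rank 1381 and a fold of 12.5 in 293T. RPS27L, which p53 induces, ranked 10055 in J76 with a fold of 10 and 9120 in 293T with a fold of 11.3. RPL3L, the paralog of RPL3 in heart and skeletal muscle, had a peak of rank 8924 (15.0%) in J76 and 12345 (14.4%) in 293T. Its summit lay 605 bp outside the lower-coordinate end of the gene in J76, and that peak (chr16:1943112-1943694) is also within reach of an end of MSRB1. RPL3L has no listed start in the promoter table, so the peak cannot be assigned to either gene. RPL10L had none in either line.

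Of the ribosomal genes outside the symbol rule, 12 were counted, 4 of them on chromosome X (RPS4X, RPL10, RPL36A and RPL39). A boundary peak was found at 10 of the 12 in each line. RPL22L1, a paralog of RPL22, ranked highest of these in each line, at 1597 in J76 and at 2316 in 293T, followed by RPL36AL at 1924 and 2450. RACK1, a scaffold protein on the small subunit, ranked 11433 and 16123. RPL26L1, which had none in either line, had a peak inside the annotated gene instead. The inner peak ranked 7362 with a fold of 9.88 in J76 and 3847 with a fold of 9.17 in 293T. Its first base lay 5011 bp inside the lower-coordinate end in J76 and 4360 bp inside it in 293T, so the 1 kb rule missed it.

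Other lists were as complete as the members or nearly so. In both lines a boundary peak was found at 79 of 81 mitochondrial ribosomal protein genes, with MRPL24 in J76 only and MRPL44 in neither; MRPS9 and MRPS30 ranked highest in J76, at 173 and 187, and MRPL50 and MRPS9 in 293T, at 70 and 88. Translation factors had one in 59 of 62, without EIF5AL1, EIF2S3B and EIF4ENIF1; the highest were EIF5 (323) and EIF2A (436) in J76, and EIF2A (261) and EIF5A2 (322) in 293T. Ribosome biogenesis factors had one in 34 of 36, without BYSL and PES1, and LTV1 ranked highest in both lines, at 80 and 19, followed by TCOF1 (619) in J76 and RIOK1 (312) in 293T. RNA polymerase I and its factors had one in 15 of 15, led by POLR1F at 1067 and 1103, with TAF1D (2251) next in J76 and TAF1A (1981) in 293T. Proteasome subunits had one in 35 of 39, with PSMB8 and PSMA8 in J76 only and PSMB11 and PSMA6 in neither; PSMA5 ranked highest, at 156 and 168, followed by PSMC6 (453) in J76 and PSMD10 (288) in 293T. The median lead ranks in J76 were at 11.5% of the list for the mitochondrial ribosomal proteins, 6.88% for translation factors and 5.69% for biogenesis factors, against 9.08% for the members. In 293T they were at 7.82%, 6.83% and 5.78%, against 9.68%.

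Many members have a neighbour close by. Another coding gene's end lay within 2 kb of a gene end in 35 of the 77 members (45.5%), against 36.7% of other genes. The lead peak lay within 1 kb of such an end in 26 of 76 members in J76 and 24 in 293T, and there it cannot be assigned to 1 of the 2 genes. RPL7A, for example, lies between MED22 and SURF1, and RPS27 between NUP210L and RAB13. Lead peaks near another gene's end were not counted over the other genes.

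Processed pseudogenes of these genes, copies made by reverse transcription that lack the parent's promoter, fill the genome. Of 1897 ribosomal protein pseudogenes, 89 (4.69%) had a boundary peak in J76 and 135 (7.12%) in 293T. Among 13624 other pseudogenes the shares were 10.3% and 10.8%. A peak on the copy itself was found in 22 ribosomal protein pseudogenes (1.16%) in J76 and 41 (2.16%) in 293T, against 8.53% and 8.57% of the other pseudogenes. The copies are shorter, with a median of 536 bp against 776 bp. The sources used here do not say how reads that map to several places were treated, so these shares, and peaks over the exons of the parent genes, are uncertain.

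Peaks away from gene ends were also counted around the members. Distinct peaks over 1 kb from every coding gene end and within 50 kb of a member numbered 201 in J76 and 289 in 293T. Counting a peak once for each gene it is near, the mean was 2.73 per member in J76, against 3.36 per other gene, and 3.92 in 293T, against 4.50. The medians were 3 for members and 3 for other genes in both lines. No such peak was near 8 members (10.4%) in J76, against 10.7% of other genes, and 4 members (5.19%) in 293T, against 8.7%. The window also spans the gene, and the members are short. Of the distinct peaks, 88 in J76 and 174 in 293T overlapped no peak of the other line. The mean number of such peaks was 1.17 per member in J76, against 1.76 per other gene, and 2.34 in 293T, against 2.89.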

How the data were processed

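ATAC-seq peaks of 2 libraries, 1 of J76 and 1 of 293T, were analysed. Per the submitters' processing notes, Bowtie2 and MACS2 were used. Versions, settings, duplicate removal, the shift of cut positions and the build were not given in the sources used here. Positions are printed as GRCh38 because the contig names in the lists are those of that build. The lists deposited by the authors give a fold enrichment at the summit (a linear ratio) and a p-value and q-value as −log10. The folds and −log10 values are the authors' own and were used only to rank and describe peaks within a list. The summit offset deposited by the authors gave summit positions. Depth is unknown, since no counts are given, so no interval or floor was computed.

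Peaks were ranked by −log10 q, with ties broken by −log10 p and then fold. Genes came from RefSeq GRCh38.p14, matched by symbol, and promoters from the RefSeq table of the same build, in which 60 of 77 members were found. Genes on chromosome Y were left out. With 1 library per line no test was run. Some genes that the rule below names are not reported here. Genes were named by a rule: members without a peak, small subgroups, and the extremes of rank, width and gap between the lines. The members, lists and markers were chosen with earlier results of these data known. The share standing higher in J76, far-end peaks, additional peaks, pseudogenes, inner peaks and markers were added after the data were seen. Python 3.11.15 with pandas 2.3.3, numpy 2.4.6 and scipy 1.17.1 was used. Alternatives were other peak cut-offs, lists of equal length, other windows and ranking by fold.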

Additional observations from a re-analysis of the deposited data

How the results depend on the processing

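Of 155 alternative values computed, 119 stayed within the limits set for them and 36 moved. A share moved when it left the 95% confidence interval of the main share. Any other value moved when it differed from the main value by a ratio above 1.5. Peaks kept their rank in the full list when a cut-off was applied, so many median ranks could hardly change. The number of unchanged values is therefore no measure of how stable the results are. When both lists were limited to their first 20000 peaks, 3 members kept one in J76 only and 2 members had none in either line. The same counts were not made over all genes. Ranking by fold in place of −log10 q put the members' median rank at 14901 in 293T, against 8283. AAGATGGC was in 1 member (1.72%) when only the 250 bases before the start were searched, against 6 (10.3%). The share of other genes was then 1.47%, against 4.09%. Within 20 kb of a member there were 91 distal peaks in J76 and 140 in 293T. Most of the other values that moved were numbers of additional and far-end peaks, which follow the cut-off and the window. No paired analysis was possible because each line had 1 library. No replicate could be left out for the same reason. Depth is unknown, so a missing peak sets no limit on accessibility.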
